A study of Mus musculus with 45 samples.

Results

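The 3 arrays of E8.5 heart tubes were set against the 3 arrays of R1 embryonic stem cells (ESC), 6 of the 45 arrays in a series on mouse heart development. These samples were chosen by their labels, and samples, gene lists and gene pairs were chosen with earlier results of these data known. The remaining 39 arrays held whole embryos at E7.5 and left and right ventricles from E9.5 to the adult. Here they served to estimate the spread between replicates and to place the levels of single genes at other stages. R1 is a mouse embryonic stem cell line, used by the study as its reference for pluripotency. The heart tubes were dissected from wild type CD1 embryos at embryonic day 8.5, staged by shape and number of somites. Each heart tube replicate pooled 30 to 50 hearts, so each array shows the mean of many. No transgene, deletion or drug is named for either group. The stem cells are 1 line, and line, strain, culture and stage cannot be told apart in this comparison. The labels describe biological triplicates but not how the stem cells were grown, with or without LIF or feeder cells, nor whether they came from separate cultures. P-values and standard errors rest on the spread between replicates pooled over all 9 stages, not on these 6 arrays alone. From E9.5 on each value in that spread is the mean of a left and a right ventricle array. The spread of such means can be smaller than that of the single arrays compared here, so standard errors and p-values may be too small. The part of that spread from the stem cells may be technical.

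Embryonic stem cells resemble the inner cells of the blastocyst and can form every tissue of the embryo, a state held by a circuit of transcription factors around Pou5f1 (Oct4), Sox2 and Nanog. The heart tube is the first beating form of the heart. It has an outer sheath of muscle, an inner lining of endocardium and a swollen matrix between them, the cardiac jelly. It lengthens as cells join it at both ends from the second heart field, and it carries the first red cells of the yolk sac.

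Levels are log2 expression values made by RMA. A change is the heart tube mean minus the ESC mean on that log2 scale, with n = 3 arrays a group, so that 1 is a 2-fold difference, and SE is its standard error from the limma fit. A gene is said to rise or fall where limma's adjusted p was under 0.05. Of 18193 genes 11050 (60.7%) were called, 4824 higher (26.5%) and 6226 lower (34.2%) in the heart tube. After each array was scaled to a housekeeping list, which moved the median change of all genes by 0.11 from -0.062, 55.5% of the calls were higher, against 43.7% before. Of the 15 genes in the housekeeping list 3 were themselves called higher and 5 lower before scaling, so the list is not a fixed reference. Because so many genes were called, members of gene lists are counted below where they were called and changed at least 2-fold, a rule chosen after the data were seen. By it 1766 genes were higher (9.71%) and 1606 lower (8.83%). The 3 arrays of each group did not overlap for 11398 genes (62.7%). These shares are the background for each list. At least 16-fold changes were found for 174 genes that rose and 100 that fell.

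**Figure D1:**
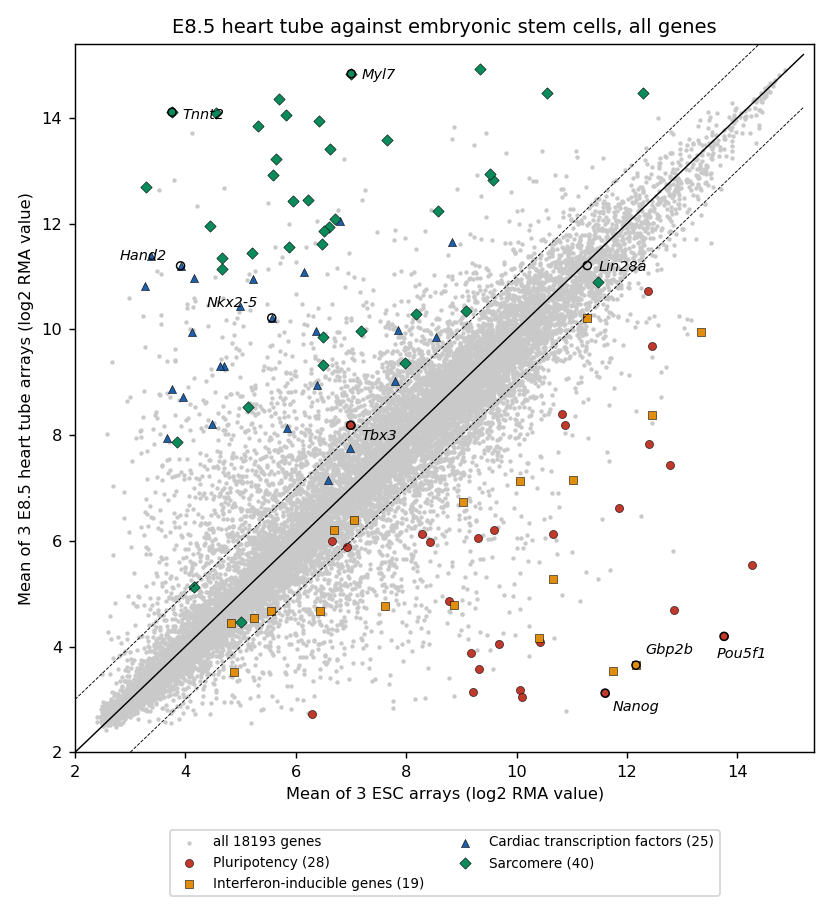
Mean log2 RMA value in the 3 heart tube arrays (y axis) against that in the 3 ESC arrays (x axis) for 18193 genes, with 4 gene lists coloured and dashed lines at a 2-fold difference. Genes above the upper line and below the lower one include the 1766 and 1606 called and changed at least 2-fold.

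The labelled identities were checked against markers. Pou5f1, Nanog and Zfp42 were higher in every ESC array than in any heart tube array, and Tnnt2, Myh7 and Nkx2-5 were higher in every heart tube array. Over all genes the arrays correlated at 0.996 to 0.997 within ESC, at 0.994 to 0.996 within the heart tube and at 0.905 to 0.911 between them. Heart tube replicate 2 stood apart in markers of the visceral endoderm, the layer outside the embryo that nourishes it and secretes carrier proteins. Over 15 such markers its mean level was 8.85, against 5.90 and 6.66 in heart tube replicates 1 and 3 and 5.14, 5.09 and 5.13 in the ESC arrays. Apob, a lipid carrier, read 5.48, 9.43 and 6.33 in heart tube replicates 1 to 3. Of the 15 markers 12 were at least 2-fold higher in the heart tube with all arrays, and 8 without replicate 2. Apoa4, Apom and Amn lost their call without it, at changes of 0.56, 0.38 and 0.55.

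**Figure D2:**
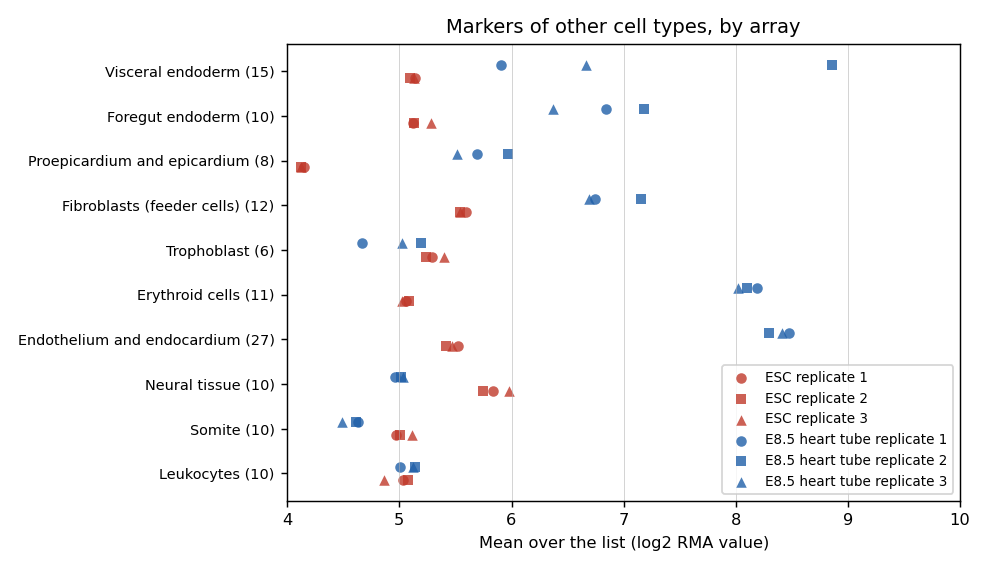
Mean log2 RMA value over the members of 10 marker lists of other cell types in each of the 6 arrays, ESC and heart tube in separate colours. Heart tube replicate 2 lies at 8.85 for visceral endoderm, apart from 5.90 and 6.66 in the other heart tubes.

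Other tissues near the heart were traced in the same way. Foregut endoderm, which lies against the heart tube, had 5 of 10 markers at least 2-fold higher, with list means of 6.84, 7.18 and 6.37 in the heart tubes and 5.12, 5.13 and 5.29 in ESC. The endodermal signal Shh rose by 3.86 and the factor Foxa1 rose by 3.31. Markers of the proepicardium and epicardium, the future outer layer of the heart, were higher in 5 of 8, led by Tcf21 at 4.4. Their means were 5.69, 5.97 and 5.52 against 4.15, 4.13 and 4.12. Most were dim, with 6 of the 8 below the array median on all 6 arrays and 1 above it on all 3 heart tube arrays. Of 12 fibroblast markers 6 were higher and 1 lower, with means of 6.74, 7.15 and 6.69 against 5.60, 5.54 and 5.54. Lum, a matrix proteoglycan in that list, rose by 1.45 with all arrays and by 0.77 without heart tube replicate 2.

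Markers of tissues farther away were mostly not higher. None of 10 neural markers was at least 2-fold higher and 4 were lower, led by Tubb3, a neuronal tubulin, which fell by 4.14. Without ESC replicate 3 the neural count was 2, with Elavl3 at -0.78 and Sox3 at -0.94. Among 10 somite markers 0 were higher and 2 lower, and among 6 neural crest markers 2 were higher (Sox9 and Ets1). Of 10 leukocyte markers Lyz2 and Csf1r were higher and Cd68 was lower, with list means of 5.00, 5.14 and 5.12 in the heart tubes and 5.04, 5.08 and 4.86 in ESC. Csf1r stood at -0.48, and was not called, with the probe set brightest in these 6 arrays. Among 6 trophoblast markers Plac1 was higher, and Tfap2c and Ascl2 were lower. Without heart tube replicate 1 a further trophoblast marker, Prl4a1, which read 4.51, 6.99 and 5.92 in the heart tubes and 4.61, 4.51 and 4.82 in ESC, also counted as higher, and it is named here after its values were seen. On bulk arrays fewer cells of a type and less RNA per cell cannot be told apart, and the part of other tissues in the changes below was not tested.

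The 12 largest rises were of muscle, red cell and growth factor genes. Tnnt2, the troponin that ties the calcium switch of heart muscle to the thin filament, read 4.08, 3.63 and 3.56 in ESC and 14.11, 14.04 and 14.18 in the heart tubes. It rose by 10.35 (SE 0.13, adjusted p = 2.57e-25), or 1.31e+03-fold. The other muscle genes among the 12 were Myl2 (9.55), Smpx (9.42), Nppa (9.03), Myh7 (8.65), Tnni1 (8.54), Myl4 (8.23) and Mef2c (8.0). Igfbp5, a secreted binder of insulin-like growth factors, read 3.40, 3.77 and 3.37 in ESC and 12.76, 12.57 and 12.60 in the heart tubes. It rose by 9.13 (SE 0.16, adjusted p = 3.73e-23). The globins Hbb-bh1 (9.60), Hbb-y (8.13) and Hba-x (7.98) made up the rest. Globin genes are near-identical copies, and which copy a probe set measures is uncertain.

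The 12 largest falls were led by the stem cell factors Pou5f1 (-9.57), Dppa5a (-8.72), Nanog (-8.49) and Zfp42 (-8.16). Fbxo15 (-7.04) and Dppa2 (-6.88), also known from stem cells, were among them. Gbp2b (-8.52) and Gbp2 (-8.22) encode interferon-inducible GTPases. Nefl, the light chain of neurofilaments, read 12.89, 12.66 and 12.95 in ESC and 5.82, 5.81 and 5.81 in the heart tubes. Its level was thus high in all 3 ESC arrays, though the protein is best known from neurons. Morc1, needed to silence transposons in male germ cells, fell by 8.13 (SE 0.086, adjusted p = 5.66e-27), and Mageb16 (-6.51) and Rpl39l (-6.41) completed the 12. Mageb16 read 3.57, 5.39 and 3.53 in heart tube replicates 1 to 3, with replicate 2 above the other heart tubes.

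**Figure D3:**
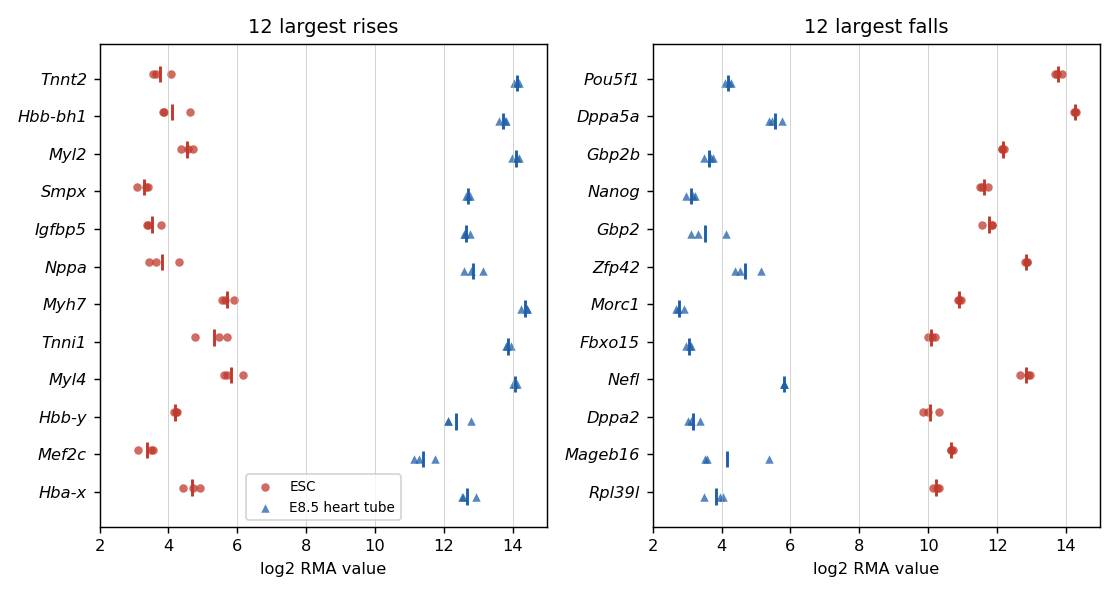
Log2 RMA value on each of the 3 ESC and 3 heart tube arrays for the 12 largest rises and the 12 largest falls, with a bar at each group's mean. The groups lie apart for all 24 genes, and Mageb16 in heart tube replicate 2 (5.39) lies above the other heart tubes (3.57 and 3.53).

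Pluripotency genes fell almost throughout. Of 28 measured members 26 were at least 2-fold lower and 1 was higher, with a median change of -4.55 against -0.062 over all genes. Pou5f1 read 13.68, 13.87 and 13.73 in ESC and 4.10, 4.21 and 4.27 in the heart tubes. Its fall of 9.57 (SE 0.13, adjusted p = 5.03e-25) was the largest of the 18193 genes. Nanog read 11.51, 11.74 and 11.56 in ESC and 2.97, 3.22 and 3.17 in the heart tubes. For both factors the heart tube arrays lay far below every ESC array.

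Other members of the circuit kept higher readings. Sox2, partner of Pou5f1 and also a neural and endodermal factor, read 12.46, 12.34 and 12.40 in ESC and 7.84, 7.82 and 7.82 in the heart tubes, and fell by 4.57. Sall4, a zinc finger factor of the same circuit, read 12.39, 12.21 and 12.54 against 10.81, 10.62 and 10.77. Its change was -1.65 (SE 0.13, adjusted p = 1.28e-10), the smallest of the 4 core genes. Klf4 fell by 2.42 and Esrrb, an orphan nuclear receptor, fell by 2.16. Tbx3, a T-box factor of stem cells that also acts in the heart, was the member that rose, by 1.2 (adjusted p = 6.52e-06), and its probe sets were called in opposite directions.

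The genes of LIF signalling, which holds mouse stem cells in the naive state through Stat3, were lower or changed by less than 2-fold. Of 12 members 5 were at least 2-fold lower and 0 higher, and 3 of the 4 targets were among the 5. Socs3, the feedback inhibitor, read 10.79, 10.70 and 10.77 in ESC and 6.96, 6.94 and 6.83 in the heart tubes. It fell by 3.84 (SE 0.1, adjusted p = 9.48e-20). Junb fell by 3.22, Pim1 fell by 1.34 and the ligand Lif itself fell by 1.67. The receptor gene Lifr and the kinase gene Jak1 rose by less than 2-fold, at 0.63 and 0.87.

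Genes of the primed epiblast, the state that follows the naive one after implantation, were also high in ESC. Of 9 members 8 were lower in the heart tube and 1, Sall2, was higher, at a median of -2.48. Fgf5, the growth factor that marks that state, read 7.43, 7.84 and 7.78 in ESC and 3.56, 2.88 and 3.45 in the heart tubes. The zinc finger genes Zic5 and Zic2 fell by 5.37 and 4.28. At E7.5, in whole embryos, their means were 9.13 and 9.62, above the ESC means of 8.78 and 8.28.

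Of 17 germline genes 10 were at least 2-fold lower in the heart tube and 1 was higher. The levels of most were low in both groups, with 11 members below the array median on all 6 arrays and 5 above it on all 3 ESC arrays. The members described next are among those that changed most. Ddx4, an RNA helicase of germ cells, read 8.58, 8.04 and 8.61 in ESC and 3.80, 4.10 and 4.24 in the heart tubes, and fell by 4.36. Rnf17 and Sycp3, genes of germ cell granules and of the meiotic chromosome axis, fell by 4.4 and 4.12. Mov10l1, an RNA helicase of germ cells with a known heart form, read 5.63, 5.41 and 5.96 in ESC and 8.40, 8.45 and 8.96 in the heart tubes. It was the member that rose, by 2.94 (SE 0.15, adjusted p = 2.77e-14).

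Of 13 genes of DNA methylation 1 was at least 2-fold higher and 4 were lower. Dnmt3l, the cofactor that has no catalytic activity of its own, read 11.48, 11.36 and 11.59 in ESC and 5.33, 5.35 and 5.17 in the heart tubes, and fell by 6.19. Dnmt3b read 12.97, 12.87 and 13.02 against 10.25, 10.29 and 10.25, while Dnmt3a read 9.14, 9.07 and 9.15 against 10.64, 10.29 and 10.23. These sister enzymes moved in opposite directions, and the difference between their changes was 3.96 (SE 0.13). Tet1, which oxidises methylated cytosine, fell by 1.81, and Zfp57, a keeper of imprints, fell by 1.11.

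Polycomb genes, which keep developmental genes silent through marks on histones, moved in both directions. Of 17 members 2 were at least 2-fold higher and 5 lower. Among the PRC1 subunits, Cbx7 read 9.09, 9.08 and 9.01 in ESC and 5.07, 5.43 and 5.42 in the heart tubes, and Bmi1 read 5.74, 5.83 and 5.88 against 9.22, 9.22 and 9.06. Cbx7 thus fell by 3.75 and Bmi1 rose by 3.35, with no overlap between groups for either. Cbx8, the other member that rose, did so by 1.2, and by 0.96 without ESC replicate 2. In PRC2, Eed fell by 1.77, though its probe sets were called in opposite directions, and Jarid2 fell by 1.23. The methyltransferase gene Ezh2 changed by -0.004 (SE 0.077) and was not called, whereas its relative Ezh1 fell by 0.73.

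Subunits of the BAF complex, which slides nucleosomes with the energy of ATP and exists in stem cell and heart forms, changed unequally between related subunits. Smarcd3 (BAF60c), the heart form of its subunit, read 6.16, 6.18 and 6.09 in ESC and 11.18, 10.90 and 11.05 in the heart tubes. It rose by 4.90 (SE 0.088, adjusted p = 1.08e-22), while Smarcd1 fell by 1.08. The changes of this pair differed by 5.98 (SE 0.13). Of the ATPase genes, Smarca2 rose by 2.61 and Smarca4 changed by 0.11, which was not called, a difference of 2.50 (SE 0.11). In all 4 of 15 members were at least 2-fold higher and 1 was lower, and Smarcd1 changed by -0.99 without ESC replicate 3 and by -0.96 after housekeeping scaling.

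Cardiac transcription factors rose as a body. All 25 measured members were called higher, 23 of them at least 2-fold, with a median change of 4.65. Mef2c, a MADS-box activator of muscle genes, read 3.54, 3.11 and 3.49 in ESC and 11.74, 11.28 and 11.12 in the heart tubes. It rose by 8.0 (SE 0.18, adjusted p = 7.06e-21). Myocd, the heart and smooth muscle cofactor of Srf, read 4.07, 4.21 and 4.17 against 11.33, 10.81 and 10.80. Hand2, a bHLH factor of the right ventricle and outflow tract, read 3.87, 3.71 and 4.16 against 11.28, 11.17 and 11.16. None of these 3 genes had overlapping groups, and Smyd1, a muscle methyltransferase, rose by 7.55.

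The factors that define early heart cells changed less than these but clearly. Nkx2-5, the homeobox gene of the heart field, read 5.53, 5.72 and 5.43 in ESC and 10.26, 10.08 and 10.31 in the heart tubes, and rose by 4.65 (SE 0.13, adjusted p = 6.18e-19). The T-box genes Tbx20 and Tbx5 rose by 5.25 and 3.60. Gata4, a zinc finger factor of heart and gut, rose by 3.72. Hand1, the left-sided relative of Hand2, read 6.67, 6.54 and 6.52 in ESC and 7.03, 7.21 and 7.21 in the heart tubes. It rose by 0.58, under 2-fold, as did the GATA partner Zfpm2 at 0.78, the only other member under that size, named after its value was seen. The means of Hand1 lay between 6.58 and 7.38 at all 9 stages.

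Genes of the second heart field, whose cells were joining the tube, were higher in 8 of 12 and lower in 1. Isl1, the LIM-homeobox marker of the field, read 4.97, 5.08 and 4.73 in ESC and 8.86, 8.94 and 8.58 in the heart tubes. It rose by 3.87 (SE 0.16, adjusted p = 4.75e-16). Foxc2 (4.26), Tbx1 (2.99) and Wnt11 (2.84), all needed for the outflow tract, also rose. Fgf8, a growth factor of the field, read 10.23, 10.13 and 10.03 in ESC and 8.33, 8.76 and 8.5 in the heart tubes, and so fell by 1.6.

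Sarcomere genes had the largest median change of the lists. Of 40 members 37 were at least 2-fold higher and 0 lower, with a median of 5.49, and in the thick filament and M-band group 9 of 10 rose with a median of 6.74. Myl2, the regulatory light chain of the ventricle, read 4.57, 4.36 and 4.72 in ESC and 14.13, 13.97 and 14.19 in the heart tubes. Myh7, the slow myosin heavy chain, read 5.89, 5.65 and 5.57 against 14.42, 14.23 and 14.40. Myh6, the fast heavy chain, read 7.71, 7.53 and 7.72 against 13.79, 13.31 and 13.63 and rose by 5.92. The groups of all 3 were far apart. Myl7, the atrial light chain, rose by 7.83 with an SE of 0.57, and Ttn, the giant spring of the sarcomere, rose by 6.47.

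In the thin filament 12 of 13 members rose at least 2-fold. Actc1, cardiac actin, read 9.27, 9.36 and 9.37 in ESC and 14.91, 14.91 and 14.97 in the heart tubes, and rose by 5.60. Actin genes are close copies, so the share of each in such a reading is uncertain. Tnni1, the troponin of slow skeletal and fetal heart muscle, read 5.70, 5.47 and 4.77 against 13.82, 13.79 and 13.94. Smpx, a small protein of the costamere, read 3.34, 3.41 and 3.08 in ESC and 12.70, 12.65 and 12.74 in the heart tubes. It rose by 9.42 (SE 0.087, adjusted p = 4.36e-28), the largest change among 17 Z-disc and costamere genes, of which 16 rose at least 2-fold. The 3 members that did not reach that size were Tpm2 (-0.57), Myom2 (-0.55) and Myoz2 (0.97), the second a late M-band gene and the third named after its value was seen. The probe sets of Tpm2 were called in opposite directions. The call of Myom2 was lost without heart tube replicate 1 or 3 or ESC replicate 2 (adjusted p = 0.123, 0.068 and 0.129) and after housekeeping scaling (adjusted p = 0.087).

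Promoters are shown for 3 sarcomere genes that rose and hold a CArG box, the site bound by Srf, the partner of Myocd. They were chosen after the values were seen. Sequences are from RefSeq (GRCm38.p6), the 250 bases before the start of the transcript, in the direction of the gene, with the CArG box in capitals. The windows are Myl7 (chr11:5898783-5899032, minus strand), Myl3 (chr9:110763428-110763677, plus strand) and Actc1 (chr2:114052876-114053125, minus strand).
Myl7: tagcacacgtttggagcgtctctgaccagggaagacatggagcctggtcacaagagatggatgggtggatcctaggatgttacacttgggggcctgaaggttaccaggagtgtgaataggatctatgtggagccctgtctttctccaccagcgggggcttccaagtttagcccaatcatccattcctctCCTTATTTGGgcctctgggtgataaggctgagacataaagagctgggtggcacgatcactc
Myl3: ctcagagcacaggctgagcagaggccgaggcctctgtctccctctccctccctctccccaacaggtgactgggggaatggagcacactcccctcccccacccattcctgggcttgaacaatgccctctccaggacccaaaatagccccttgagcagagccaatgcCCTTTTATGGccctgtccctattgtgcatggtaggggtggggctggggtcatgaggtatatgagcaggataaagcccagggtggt
Actc1: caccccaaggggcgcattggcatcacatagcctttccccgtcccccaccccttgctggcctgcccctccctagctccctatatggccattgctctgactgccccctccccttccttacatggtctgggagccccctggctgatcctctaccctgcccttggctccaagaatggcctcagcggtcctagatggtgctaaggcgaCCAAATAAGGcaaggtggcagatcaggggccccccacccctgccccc
The box ended 51, 75 and 37 bases before the start in Myl7, Myl3 and Actc1, whose changes were 7.83, 6.79 and 5.60. Of 40 sarcomere genes 35 had a promoter in the table, in 48 windows, and 10 windows (20.8%) of 8 genes held the box on either strand. Over all 32851 windows 482 (1.47%) held it. CATTCC, the core of the site of TEAD factors, was found in 14 of the 48 windows (29.2%) against 12.6% of all windows. These matches are a description of the letters and not evidence of binding.

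Calcium handling genes, which link the electrical beat to contraction, were higher in 13 of 20, at a median of 3.11. Ryr2, the channel that releases calcium from the store, read 3.54, 3.70 and 3.42 in ESC and 10.43, 9.90 and 9.96 in the heart tubes. Slc8a1, the sodium-calcium exchanger needed for the first heartbeats, read 3.53, 3.36 and 3.79 against 10.75, 9.84 and 10.21. They rose by 6.54 and 6.71 without overlap. Atp2a2, the pump that refills the store, rose by 4.77. Trdn, which anchors the release complex, rose by 6.71, and Casq1, a calcium buffer known mainly from skeletal muscle, rose by 5.46.

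Ion channel and connexin genes were mixed, with 4 of 14 members higher and 3 lower. Kcnj5, a potassium channel subunit of atrium and pacemaker, read 3.44, 3.80 and 3.75 in ESC and 9.46, 9.23 and 9.51 in the heart tubes. Its usual partner Kcnj3 read 6.20, 6.15 and 6.11 in ESC and 3.91, 3.46 and 3.07 in the heart tubes. The former rose by 5.74 and the latter fell by 2.68. Kcna5 (3.72) and Kcnh2 (3.61), channels that end the action potential, rose. Gja1, connexin 43, fell by 1.26 from a high level in ESC, where it read 12.85, 12.79 and 12.90.

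The natriuretic peptide genes, hormones of stretched heart muscle, rose in the heart tube. Nppa read 3.44, 3.65 and 4.31 in ESC and 12.79, 12.58 and 13.13 in the heart tubes. It rose by 9.03 (SE 0.36, adjusted p = 3.50e-16), and Nppb rose by 5.67. Npr3, the receptor that clears the peptides, rose by 4.65, and the receptor gene Npr2 rose by less than 2-fold. Of the 5 members of the group 3 were at least 2-fold higher.

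**Figure D4:**
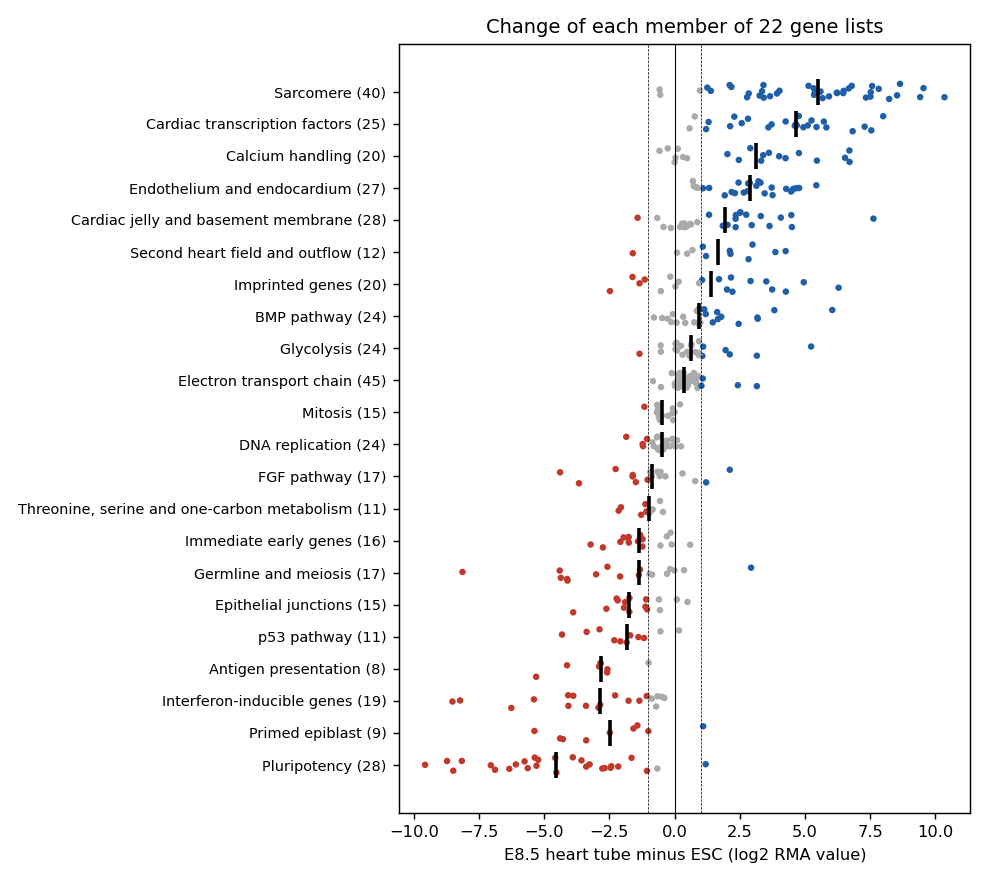
Change (heart tube minus ESC, log2) of each member of 22 gene lists as points, with a bar at the list's median. Blue and red points are members called and at least 2-fold higher or lower, and grey points are the others. Sarcomere genes and cardiac factors lie mostly to the right of 2-fold, pluripotency, interferon and antigen presentation genes mostly to the left.

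Electron transport genes mostly changed by small amounts. Of 45 electron transport genes 36 were called higher and 2 lower, but only 4 were at least 2-fold higher, and the median was 0.36. Cox6a2, the heart and muscle form of a cytochrome oxidase subunit, read 6.46, 6.15 and 6.41 in ESC and 9.5, 9.36 and 9.63 in the heart tubes. Its widespread sister Cox6a1 read 13.98, 13.99 and 13.97 against 14.17, 14.20 and 14.22. Their changes differed by 2.94 (SE 0.085). Cox7a1, also a muscle form, rose by 2.43 against 0.56 for Cox7a2, while the muscle form Cox8b changed by -0.10 (not called) against 0.75 for Cox8a, whose probe sets were called in opposite directions. The other members of the list at 2-fold were Sdhd (1.08) and Uqcrh (1.03).

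Of 24 glycolysis genes 6 were at least 2-fold higher and 1 lower, and after housekeeping scaling 10 were higher. Pgam2, muscle phosphoglycerate mutase, read 7.12, 7.22 and 7.26 in ESC and 12.47, 12.34 and 12.52 in the heart tubes. It rose by 5.24 against 0.25 for Pgam1, a difference of 4.99 (SE 0.089). Eno3, muscle enolase, rose by 3.16, the muscle phosphofructokinase gene Pfkm rose by 1.1, and the lactate transporter gene Slc16a3 rose by 1.07, the last 2 named after their values were seen. Hk1, a widespread hexokinase, rose by 2.12 while Hk2 changed by 0.10 and was not called. Ldhb, the lactate dehydrogenase subunit of oxidative tissue, fell by 1.34 and Ldha rose by 0.63. Pdk1, a brake on pyruvate entry into mitochondria, rose by 1.96, but its change was -0.30 with the probe set brightest in these 6 arrays. The glucose transporter genes Slc2a1 and Slc2a3 changed by 0.039 (not called) and -0.53.

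Genes of threonine, serine and one-carbon metabolism, on which mouse stem cells depend for methyl groups and nucleotides, were called lower in all 11 measured, 5 of them at least 2-fold. Gldc, of the glycine cleavage system, read 10.53, 10.35 and 10.48 in ESC and 8.22, 8.71 and 8.0 in the heart tubes. Psat1, of serine synthesis, read 12.16, 12.29 and 12.12 against 10.03, 10.30 and 10.08. They fell by 2.14 and 2.06, and Shmt2 and Ahcy by 1.28 and 1.12.

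Endothelial and endocardial genes, of the lining of the tube and its vessels, were called higher in all 27 and at least 2-fold in 23, with a median of 2.89. Cdh5, the cadherin of endothelial junctions, read 4.45, 4.45 and 4.51 in ESC and 9.51, 9.12 and 9.11 in the heart tubes. Fli1, an ETS factor of blood and endothelium, read 2.70, 2.46 and 2.57 against 8.22, 7.91 and 7.93. Their groups did not overlap, and they rose by 4.78 and 5.44. Ramp2, a co-receptor for adrenomedullin, rose by 4.67 and Sox17, a factor of both endothelium and endoderm, rose by 4.56.

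Red cell genes were higher in 6 of 11. The embryonic beta-like globin Hbb-bh1 read 3.85, 4.64 and 3.86 in ESC and 13.79, 13.77 and 13.59 in the heart tubes. Its SE, from the spread pooled over all 9 stages, was 0.85, large beside that of most genes here, with an adjusted p of 7.31e-10. Slc4a1, the anion exchanger of the red cell membrane, read 4.66, 4.50 and 5.21 against 8.69, 8.32 and 8.32 and rose by 3.65. The mean of the list was 8.19, 8.1 and 8.02 in the heart tubes and 5.06, 5.08 and 5.02 in ESC.

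Of 28 matrix genes 16 were at least 2-fold higher and 1 lower, made up of 6 of 8 jelly genes, 3 of 12 basement membrane genes and 7 of 8 fibrillar and elastic genes. Hapln1, which ties hyaluronan to versican in the jelly, read 3.55, 3.25 and 3.65 in ESC and 11.34, 10.98 and 11.02 in the heart tubes. It rose by 7.63 (SE 0.26, adjusted p = 2.36e-17). Vcan, versican itself, rose by 4.08. Col2a1, best known as the collagen of cartilage, read 7.01, 6.93 and 6.97 against 11.68, 11.22 and 11.46 and rose by 4.48. In the basement membrane the laminin chain Lama4 rose by 4.50 and Lama5 fell by 1.42.

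Epithelial junction genes fell and mesenchymal genes rose. Of 15 epithelial members 11 were at least 2-fold lower and 0 higher, and of 10 mesenchymal members 8 were higher and 0 lower. Cdh1, E-cadherin, read 12.67, 12.53 and 12.64 in ESC and 8.80, 9.08 and 8.3 in the heart tubes. Cdh2, the N-cadherin of heart muscle, read 10.01, 10.03 and 10.09 against 12.18, 11.87 and 11.94. The change of Cdh2 exceeded that of Cdh1 by 5.84 (SE 0.42). Of the tight junction genes Cldn7 fell by 2.61, Cldn4 fell by 2.22 and Ocln fell by 2.18. The epithelial mean was 8.72, 8.93 and 8.54 in heart tube replicates 1 to 3, highest in replicate 2, which also read highest for visceral endoderm, and 11 members were lower without it too.

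Among mesenchymal genes Cdh11 (3.82), Snai2 (3.54), Zeb2 (3.24) and Zeb1 (3.12) rose most. Snai1 and Twist2, relatives of Snai2 and Twist1, moved the other way at under 2-fold, with changes of -0.59 and -0.39. The call of Twist2 was lost without heart tube replicate 2 or 3 or ESC replicate 1 or 2 (adjusted p = 0.067, 0.163, 0.096 and 0.059), and after housekeeping scaling (adjusted p = 0.137).

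BMP signals, which induce heart muscle and cushion formation, rose at several tiers. Of 24 members 11 were at least 2-fold higher and 0 lower, among them 4 of 6 ligands, 1 of 4 receptors, 2 of 6 inhibitors and 4 of 8 transducers and targets. Bmp5 read 4.43, 4.25 and 4.57 in ESC and 10.62, 10.22 and 10.56 in the heart tubes. It rose by 6.05 (SE 0.15, adjusted p = 2.18e-20), and Bmp2 rose by 3.18. The feedback inhibitors Smad6 and Bambi rose by 3.83 and 3.19. Smad7, the inhibitor shared with the Nodal and activin branch, fell by 0.79.

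Nodal genes, active in stem cells and in the patterning of the early embryo, changed in both directions, and both measured ligands fell. Nodal read 10.71, 10.70 and 10.71 in ESC and 5.90, 6.04 and 6.11 in the heart tubes, and fell by 4.69. Lefty1 and Lefty2, its secreted inhibitors and targets, fell by 4.22 and 3.57, and the ligand Gdf3 by 3.90. The transducers Smad2 (1.63) and Smad3 (1.13) rose, the latter with opposed probe sets, and Smad2 stood at -0.24 with the probe set brightest in these 6 arrays. In all 3 of 13 members were at least 2-fold higher and 5 lower.

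Of 17 FGF genes 2 were at least 2-fold higher, the ligand gene Fgf10 and a receptor gene, and 7 were lower. Among the 7 ligands 4 were lower and 1 higher. Fgf17 read 8.40, 8.09 and 8.17 in ESC and 4.62, 4.67 and 4.37 in the heart tubes, and Fgf10, a growth factor of the second heart field, read 5.13, 5.13 and 5.04 against 7.2, 7.05 and 7.39. The first fell by 3.67 and the other rose by 2.12. Fgf4, which drives stem cells out of the naive state, fell by 0.66, and Fgf15 fell by 1.61. The Fgf4 probe set was dim, with means between 5.87 and 6.65 at all 9 stages, so its change may be understated. Etv5, a nuclear target of FGF signals, fell by 2.26, and the receptor gene Fgfr3 rose by 1.21.

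Wnt genes changed in both directions. Of 29 members 12 were at least 2-fold higher and 8 lower. By role these were 3 higher and 4 lower of 8 ligands, 3 and 1 of 8 receptors, 5 and 1 of 7 secreted inhibitors, and 1 and 2 of 6 transducers and targets. Wnt2 read 4.17, 4.37 and 3.97 in ESC and 10.80, 10.28 and 10.55 in the heart tubes. It rose by 6.38 (SE 0.18, adjusted p = 5.56e-19). Wnt3 and Wnt8a, ligands of gastrulation, fell by 3.28 and 2.42. Sp5 and Axin2, common targets of beta-catenin, fell by 4.81 and 2.71, with Axin2 at 9.52, 9.04 and 9.45 in ESC and 6.55, 6.65 and 6.67 in the heart tubes. Frzb, a secreted inhibitor, rose by 3.44 and the receptor Fzd4 rose by 3.14.

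In the Notch pathway, which patterns chambers and endocardium, 4 of 16 members were higher and 1 lower. Hey2, a target and a repressor of the ventricle, read 3.77, 3.90 and 3.61 in ESC and 8.98, 8.81 and 8.83 in the heart tubes, and rose by 5.11. Hey1 rose by 2.58, the ligand Jag1 rose by 1.5 and the receptor Notch1 rose by 1.23. Dll3, a ligand-like gene of the somites, fell by 3.87.

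Retinoic acid genes were higher in 6 of 13 and lower in 2. Rarb, a receptor and direct target, read 3.35, 3.38 and 3.66 in ESC and 8.72, 8.39 and 8.21 in the heart tubes, and rose by 4.98. Rarg, a related receptor, fell by 1.66. The binding proteins Crabp1 and Crabp2 rose by 2.42 and 2.27, and Aldh1a2, which makes the signal, rose by 1.41. Rdh10, also of the synthesis and supply genes, was 2.26-fold lower in the heart tube. Of 6 neuregulin and ErbB genes Erbb2 rose by 1.83 and Erbb3 fell by 1.83. Their values were 8.83, 8.41 and 8.69 in the heart tubes against 6.76, 6.77 and 6.91 in ESC for Erbb2, which carries the neuregulin signal in heart muscle.

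Insulin-like growth factor genes changed strongly. Of 11 members 6 were at least 2-fold higher and 3 lower. Igf2, the main growth factor of the embryo, read 9.01, 8.89 and 8.71 in ESC and 13.91, 13.74 and 13.83 in the heart tubes. It rose by 4.96 (SE 0.15, adjusted p = 1.25e-18), Igf1 rose by 4.92 and Igf2r, which removes Igf2, rose by 3.75. Of the binding proteins Igfbp5 rose, as given above, while Igfbp3 fell by 3.43 and Igfbp2 fell by 1.61.

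Several of these genes are imprinted, that is, read from 1 parental copy. Of 20 imprinted genes 11 were at least 2-fold higher and 4 lower, with a median of 1.38. Asb4, a ubiquitin ligase subunit, read 4.0, 4.22 and 4.18 in ESC and 10.34, 10.44 and 10.50 in the heart tubes, and rose by 6.29. Cdkn1c, the p57 inhibitor of the cell cycle, read 9.40, 9.5 and 9.43 against 13.69, 13.66 and 13.79 and rose by 4.27. Peg10, Impact, Magel2 and Meg3 fell by 2.48, 1.61, 1.34 and 1.14. The arrays do not tell the parental copies apart.

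Hox genes and their cofactors, which give position along the body axis, were higher in 5 of 14. Hoxb1 read 3.28, 3.28 and 3.53 in ESC and 6.31, 7.3 and 6.36 in the heart tubes, and Hoxb2 read 6.12, 5.67 and 5.95 against 8.64, 9.09 and 8.70. They rose by 3.30 and 2.89, and both were highest in heart tube replicate 2. The cofactor Pbx2 rose by 1.31. Without replicate 2 the count was 4.

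Cell cycle genes changed little beside a few regulators. Ccnd2, a D-type cyclin, read 7.21, 7.11 and 7.45 in ESC and 12.82, 12.39 and 12.71 in the heart tubes. It rose by 5.38 (SE 0.13, adjusted p = 2.48e-20), while Ccnd1 fell by 0.79 and Ccnd3 rose by 0.80. Of 8 cyclins 2 were at least 2-fold higher, and 1 (Ccne1) was lower. Ccne2, at 1.04, stood at 0.99 without heart tube replicate 2 and at 0.95 without ESC replicate 1. Of 24 replication genes 18 were called lower, but 4 by at least 2-fold, Orc1 (-1.85), Pole (-1.22), Mcm10 (-1.21) and Cdt1 (-1.05). Of 15 mitosis genes 10 were called lower and 1, Cdc20 (-1.16), by 2-fold.

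Inhibitors of the cell cycle were split, with 2 of 10 higher and 3 lower. Cdkn1a (p21), the target of p53, read 10.42, 10.42 and 10.47 in ESC and 7.47, 7.79 and 7.53 in the heart tubes, and fell by 2.84. Cdkn2b fell by 2.40 and Cdkn2d rose by 1.33. Of 11 p53 pathway genes 9 fell by at least 2-fold, at a median of -1.83. Pmaip1 (Noxa), which promotes cell death, read 9.12, 9.02 and 9.29 against 4.73, 5.11 and 4.65 and fell by 4.31, and Sesn2 fell by 3.37. Of the Myc family 4 of 8 were lower and 2 higher. Myc, Mycn and Mycl fell by 1.51, 1.3 and 1.92, and the antagonists Mxd4 and Mxd1 rose by 2.32 and 1.31. Their relative Mxd3 went the other way and was 2.60-fold lower in the heart tube.

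Interferon-inducible genes were lower in the heart tube. All 19 measured were called lower, 14 of them at least 2-fold, with a median of -2.85, and 13 lay above the array median on all 3 ESC arrays. Gbp2b, a guanylate-binding protein of cell defence, read 12.20, 12.14 and 12.15 in ESC and 3.50, 3.70 and 3.74 in the heart tubes. It fell by 8.52 (SE 0.093, adjusted p = 9.16e-27). Irgm1, a GTPase of the same response, read 10.65, 10.58 and 10.76 against 5.43, 4.98 and 5.40 and fell by 5.39. Gbp genes are near copies, and which of them a probe set reads is uncertain. At E7.5 the mean of Gbp2b was 3.67, and from E9.5 to the adult it stayed between 3.69 and 4.11. Gbp2 was likewise at 3.63 at E7.5 and 3.53 at E8.5, but its means then were 3.19 at E9.5, 5.18 at E12.5, 5.89 at E14.5, 6.77 at E18.5, 7.23 on day 3 and 9.47 in the adult.

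Antigen presentation genes shared this pattern, with 7 of 8 at least 2-fold lower and all 8 called lower. Psmb8, a subunit of the immunoproteasome, read 10.18, 10.34 and 10.17 in ESC and 4.86, 5.07 and 4.84 in the heart tubes, and fell by 5.31. Tapbp, which loads peptides, fell by 4.12 and Psmb9 fell by 2.89. H2-K1, a class I molecule whose relatives are hard to tell apart on arrays, fell by 2.84.

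Promoters of 3 of these genes are shown with the core of the site bound by interferon regulatory factors in capitals. It was searched as GAAA, any 2 bases and GAAA, on both strands, so that it reads TTTC, 2 bases and TTTC where it lies on the other strand. They too were chosen after the values were seen. The RefSeq windows (GRCm38.p6, 250 bases before the start) are Gbp2b (chr3:142594597-142594846, plus strand), Gbp2 (chr3:142620413-142620662, plus strand) and Irgm1 (chr11:48871421-48871670, minus strand).
Gbp2b: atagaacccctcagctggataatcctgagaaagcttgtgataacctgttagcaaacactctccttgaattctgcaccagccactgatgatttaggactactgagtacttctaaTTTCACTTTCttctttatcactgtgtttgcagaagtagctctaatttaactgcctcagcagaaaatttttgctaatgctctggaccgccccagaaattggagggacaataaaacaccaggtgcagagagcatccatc
Gbp2: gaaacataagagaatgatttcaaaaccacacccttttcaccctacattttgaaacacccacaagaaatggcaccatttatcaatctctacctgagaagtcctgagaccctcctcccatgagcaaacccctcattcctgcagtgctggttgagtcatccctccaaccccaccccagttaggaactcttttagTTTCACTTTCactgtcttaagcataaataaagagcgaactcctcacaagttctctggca
Irgm1: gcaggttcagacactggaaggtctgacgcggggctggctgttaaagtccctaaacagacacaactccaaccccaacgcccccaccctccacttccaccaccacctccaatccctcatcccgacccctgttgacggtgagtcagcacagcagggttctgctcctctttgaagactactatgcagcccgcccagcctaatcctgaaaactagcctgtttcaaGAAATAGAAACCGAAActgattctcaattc
In Irgm1 the capitals hold 2 overlapping matches. The last match ended 127, 49 and 14 bases before the start in Gbp2b, Gbp2 and Irgm1. Of 27 interferon and antigen presentation genes 24 had a promoter in the table, in 29 windows, and 12 windows (41.4%) held the motif, against 978 of 32851 (2.98%) of all windows. In the 48 sarcomere windows it was found 0 times, and the CArG box was found 0 times in the 29. TTCNNNGAA, the form of a STAT site, was found in 7 of the 29 (24.1%) against 7.02% of all windows. Other motifs were searched too. TATAAA was in 10.4% of the sarcomere windows and 20.7% of the 29, against 12.4% of all. AGATAA was in 16.7% and 3.45%, against 9.99%, and ATGCAAAT in 0 of both, against 1.6%. Most of the 29 windows belong to genes listed as interferon-inducible, so an excess of the GAAA motif is partly built in. These matches too are not evidence of binding.

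Splicing regulators of muscle rose and those of epithelium fell. Of 10 muscle members 7 were at least 2-fold higher, and of 4 epithelial and stem cell members 3 were lower. Rbm24, a heart and muscle splicing factor, read 5.63, 5.62 and 5.61 in ESC and 11.72, 11.42 and 11.54 in the heart tubes, and rose by 5.94. Rbm20, which sets the isoforms of titin, rose by 2.95. Esrp1 and Esrp2, which set epithelial isoforms, fell by 1.94 and 1.71, and Ptbp1, a repressor of many exons, by 1.04.

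Oncofetal genes, on in early embryos and silent later, were at least 2-fold higher in 1 of 6 and lower in 1. Lin28a, which blocks maturation of let-7, read 11.30, 11.26 and 11.30 in ESC and 11.30, 11.18 and 11.14 in the heart tubes. Its change was -0.075 (SE 0.12, adjusted p = 0.601) and was not called, but with the mean of all its probe sets it was -0.67 and called (adjusted p = 0.00069). Hmga2, a chromatin protein and let-7 target, read 9.84, 10.01 and 9.83 against 12.82, 12.42 and 12.58 and rose by 2.71. Igf2bp1 fell by 1.1, and its change was -0.98 both without heart tube replicate 2 and after housekeeping scaling.

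Immediate early genes, switched on within minutes by growth factors or handling, were lower in 11 of 16 and higher in 0, at a median of -1.36. Egr1 read 10.19, 10.21 and 10.25 in ESC and 7.76, 7.29 and 7.36 in the heart tubes, and fell by 2.75. Dusp1, which turns off MAP kinases, fell by 2.08 and Ier3 fell by 1.95. Jun rose by 0.60, under 2-fold.

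Sex-linked genes gave no single direction. Xist, the RNA that silences 1 X chromosome in female cells, read 7.14, 7.28 and 7.22 in ESC and 10.49, 9.51 and 9.61 in the pooled heart tubes. Its rise of 2.66 had an adjusted p of 0.0223, and of 0.076 without heart tube replicate 1 and 0.051 without ESC replicate 1. The Y-linked Kdm5d rose by 3.27, while Uty fell by 1.55 with an adjusted p of 0.0348 that missed the threshold whenever any of the 6 arrays was left out.

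The changes of related genes were also set side by side in 21 pairs from families with a stem cell and a heart or later form. The pairs were chosen with earlier results of these data known, so their differences are a description, with no test. The widest gap was between Esrrb and Esrrg, orphan receptors of stem cells and of oxidative muscle. Esrrg read 3.89, 3.65 and 3.88 in ESC and 9.63, 9.11 and 9.54 in the heart tubes, and its change exceeded that of Esrrb by 7.78 (SE 0.12). Smaller gaps were seen for Tet3 over Tet1 (2.29), Sall1 over Sall4 (1.71), Klf6 over Klf2 (1.45), Tcf7l2 over Tcf7l1 (0.73) and Mbnl1 over Mbnl3 (0.62). Mbnl3 had opposed probe sets. The change of Rbl2 lay below that of Rbl1 by 0.64. For Lin28a and Lin28b the gap was 0.30 (SE 0.18), with Lin28b dim in both groups, at means of 2.79 in ESC and 3.02 in the heart tube.

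Some genes crossed most of the range of an array. In ESC the array median was 6.68 to 6.72 and the top 10% began at 10.38 to 10.41, and the heart tube marks were 6.76 to 6.79 and 10.38 to 10.39. On all 3 arrays of each group, 51 genes went from below the median in ESC to the top 10% in the heart tube, and 22 went the other way. The 51 include Vcam1, an adhesion molecule of heart muscle and epicardium formation, which read 2.91, 3.06 and 2.98 in ESC and 10.65, 10.46 and 10.66 in the heart tubes. Mylk3, the cardiac myosin light chain kinase, rose by 7.51, and Cck, a peptide hormone known from gut and brain, by 6.44. The 22 include Trh, a brain releasing hormone, which read 11.58, 11.69 and 11.82 in ESC and 5.69, 5.50 and 5.13 in the heart tubes, and Stmn2, a neuronal tubulin regulator, which fell by 5.79. These 5 genes lie outside the naming rule and were chosen after their values were seen.

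The levels at all 9 stages are set beside these changes as description, with no test. Of the 1766 genes at least 2-fold higher in the heart tube, 397 (22.5%) had their highest stage mean at E8.5 and 412 (23.3%) in the adult, against 6.63% and 29.1% of all genes. Of the 1606 lower genes 1264 (78.7%) were highest in ESC, and 314 (19.6%) were lowest at E8.5, against 22.1% and 14% of all genes. Both sets were selected by their difference between ESC and E8.5, so an excess at these stages is partly built in. The E7.5 mean lay between the groups and nearer to ESC for 720 (40.8%) of the higher genes. It lay between them and nearer to the heart tube for 521 (29.5%). For the lower genes those counts were 469 (29.2%) and 806 (50.2%). The rest lay outside the range between the groups. Among the higher genes 297 were beyond the ESC level and 228 beyond the heart tube level, and among the lower genes 111 and 220. The E7.5 samples were whole embryos, so this is not a series of heart cells alone.

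**Figure D5:**
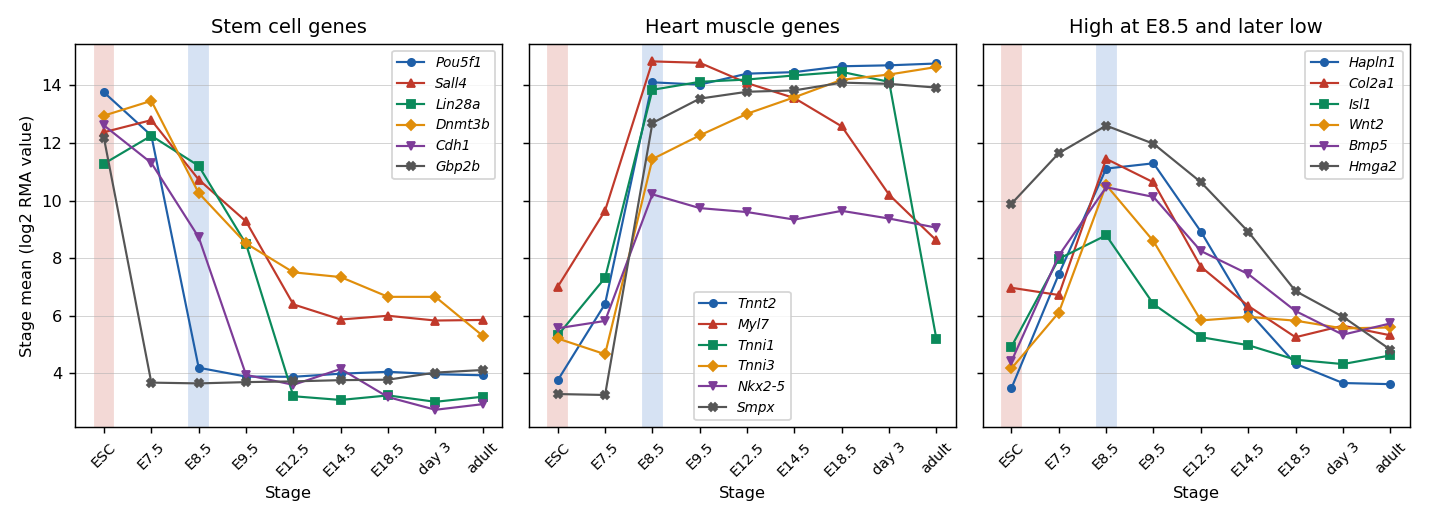
Mean log2 RMA value at 9 stages from ESC to the adult (left and right ventricle averaged from E9.5) for 18 genes in 3 panels. Pou5f1 goes from 12.26 at E7.5 to 4.19 at E8.5, Tnnt2 is at 14.11 at E8.5 and 14.76 in the adult, and Isl1 and Wnt2 are highest at E8.5.

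Genes lower in the heart tube than in ESC differed in their levels at the other stages. ESC are a cultured line, and the tissue sampled changed from whole embryo to heart tube to ventricles, so these levels do not time a fall. Pou5f1 had means of 13.76 in ESC, 12.26 at E7.5 and 4.19 at E8.5. Gbp2b was at 3.67 at E7.5. Lin28a stood at 11.21 at E8.5 and was lower in the ventricles, at 8.49 at E9.5 and 3.20 at E12.5. Cdh1 stood at 8.73 in the E8.5 heart tubes and at 3.94 in the E9.5 ventricles.

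Among genes that rose, some were high in all later samples and some were lower in them. Tnnt2 had means of 6.41 at E7.5, 14.11 at E8.5 and 14.76 in the adult. Tnni1 stood at 13.85 at E8.5 and 5.18 in the adult, while Tnni3, the adult heart form and named after its values were seen, went from 11.44 to 14.64. Wnt2 went from 10.54 at E8.5 to 8.59 and 5.84 at E9.5 and E12.5. Isl1 went from 8.79 to 6.4 and 5.25, and Col2a1 from 11.45 to 10.63 and 7.70. For these 3 genes the heart tube was the highest of the 9 stages, and later samples were ventricles only.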

How the data were processed

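The 45 Affymetrix arrays hold log2 expression values that were deposited by the authors and made by RMA, per the submitters' processing notes; the version is not given in the sources used here. RMA equalises the distributions of the arrays, so a shift shared by most genes is removed. Of 45101 probe sets 34958 had 1 gene symbol in the platform annotation, 932 had several and 9211 none or were unlisted. Each of 18193 genes was read from 1 probe set, the brightest on average across all 45 arrays. The number of arrays limits the precision.

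Left and right ventricles of the same number were averaged, giving 27 values of 9 stages. limma 3.58.1 (R 4.3.3) fitted all stages, and the contrast E8.5 heart tube minus ESC was tested two-sided, with Benjamini-Hochberg adjustment over 18193 genes (threshold 0.05). The fit was also run on simulated data with independent normal noise and known changes in 200 genes, and made 187 calls, 5 of them false. Far fewer genes changed there than were called here, and no differences between whole arrays were simulated. The simulation thus does not measure the errors of this comparison. Members were chosen by label, and members, lists and pairs were chosen with earlier results of these data known. Of 831 listed names 782 matched. Genes named are the 12 largest changes each way, a set of fixed genes, all pair members and up to 4 called genes of each list in each direction, beside those said to be chosen after their values were seen. The alternatives tried were other samples in the fit, probe set rules, dim-gene filters, scaling, a replicate block, a test against 2-fold and leaving out each array.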

Additional observations from a re-analysis of the deposited data

How the results depend on the processing

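Of 50 counts, 29 stayed within 1.5 times under every alternative run. Of 270 named genes checked, 193 kept their call under every alternative, among them the test against 2-fold and an adjusted p under 0.01. Over these named genes and all alternatives, 115 results lost the call, 8 gained one and 6 changed sign, while 4179 stayed the same. These results do not cover the genes that were not named. When limma tested for changes above 2-fold (treat), 1222 genes were higher and 988 lower. List counts then were 2 for Polycomb, 2 for electron transport, 3 for one-carbon metabolism, 7 for epithelial junctions, 3 for retinoic acid, 3 for Hox, 2 for Myc, 2 for DNA replication, 4 for splicing, 7 for immediate early genes, 7 for visceral endoderm, 2 for neural tissue, 3 for proepicardium and 3 for fibroblasts. With dim genes left out, germline counted 6, visceral endoderm 6 and proepicardium 2. With the mean of all probe sets, electron transport counted 2, Myc 1, DNA replication 2, splicing 4 and neural tissue 2. After housekeeping scaling glycolysis counted 10 and neural tissue 2, and neural tissue counted 2 without ESC replicate 3. Under stricter marks (lower quartile and top 5%), 7 genes went from dim to bright and 4 from bright to dim. With the probe set highest in the 6 arrays, Csf1r stood at -0.48, Mbnl3 at -1.17, Myom2 at 0.0053, Pdk1 at -0.30 and Smad2 at -0.24, and with the mean of all probe sets Mbnl3 stood at -0.049. Leaving out 1 array at a time gave 4578 to 4677 genes higher and 5820 to 5970 lower.

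With the replicate block 4811 genes were higher and 6214 lower. After each gene's group mean was subtracted, same-numbered ESC and heart tube arrays correlated at 0.0072, 0.029 and -0.0035. The numbers thus showed no pairing between these groups, and the other stages were not checked. Signal over background limits dim genes, whose changes may be understated.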
